A study of Mus musculus with 6 samples.

Results

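The genes described are the 10 that encode the core of the mouse microRNA machinery: the Argonautes (Ago1, Ago2, Ago3 and Ago4), their partner scaffolds (Tnrc6a, Tnrc6b and Tnrc6c) and the processing proteins (Drosha, Dgcr8 and Dicer1). They were chosen by name, from 35458 genes matched in the transcript files, with the difference between the groups already known. The values of this contrast are therefore given as a description, without a p-value for any of the 10. The nano-TiO2 group was 3 libraries of pooled fetal hearts from dams that inhaled titanium dioxide nanoparticles at a target of 12 mg/m3. The sham group was 3 libraries of pooled fetal hearts from dams in filtered room air. All dams were wild-type FVB/NJ mice, 10 weeks old, exposed in a whole-body chamber for 360 minutes on each of 6 non-consecutive days over 8 days from gestational day 5. Hearts of both sexes were collected on gestational day 15, and the libraries are the input (no antibody) arm of a study of N6-methyladenosine in RNA. The litters behind each pool are not given in the labels, so any p-value measures only the spread between these pools, which may be technical.

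MicroRNAs are short RNAs that lower the output of the messenger RNAs they pair with. Drosha and Dgcr8 form the nuclear Microprocessor, which cuts the hairpin out of the primary transcript; Dicer1 then cuts the hairpin into a duplex in the cytoplasm. An Argonaute keeps a single strand as its guide, and a Tnrc6 protein (GW182) bridges the Argonaute to the deadenylases that shorten the poly(A) tail of the target. In the developing mouse heart, loss of Dicer1 or Dgcr8 is known to disturb growth and function.

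The libraries held 12881945 to 21553478 estimated reads in nano-TiO2 hearts and 17152365 to 22720009 in sham hearts. All 8 cardiomyocyte markers were above 1 CPM (reads of a gene scaled to library size with TMM factors); their sum was 30317 to 39550 CPM in nano-TiO2 hearts and 41578 to 47618 CPM in sham hearts. Red-cell markers summed to 45558 to 93372 CPM in nano-TiO2 hearts and 121056 to 300132 CPM in sham hearts. The 8 hepatocyte markers summed to 8.44 to 38.4 CPM in nano-TiO2 hearts and 29.2 to 1056 CPM in sham hearts, the highest value being sham 2. The 6 lung epithelial markers, of which Sftpd was below 0.1 CPM on average, summed to 0.304 to 1471 CPM in nano-TiO2 hearts, with the highest value in nano-TiO2 3, and to 13.2 to 138.5 CPM in sham hearts. The 4 smooth muscle markers summed to 1504 to 1722 CPM in nano-TiO2 hearts and 2187 to 2754 CPM in sham hearts. Most of that sum was Acta2, with means of 1375 CPM in nano-TiO2 hearts and 2278 CPM in sham hearts. Myh11, Tagln and Cnn1 each overlapped between the groups. The sums of the 6 endothelial markers were 459 to 481 CPM in nano-TiO2 hearts and 463 to 491 CPM in sham hearts, and those of the 6 fibroblast markers were 2738 to 2896 CPM in nano-TiO2 hearts and 2629 to 3044 CPM in sham hearts. The 6 macrophage markers summed to 42.8 to 56.7 CPM in nano-TiO2 hearts and 46.3 to 59.0 CPM in sham hearts. The part of these cell types in the values below was not tested. In pooled tissue, a larger number of cells expressing a gene and more of its RNA per cell cannot be told apart.

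Of the 10 genes, 9 passed the filter on low counts, and 8 of the 9 were called higher in nano-TiO2 hearts by edgeR's quasi-likelihood test (Benjamini-Hochberg adjusted p under 0.05 over 13930 genes), against a background of 15.5% of all tested genes called higher and 12.8% called lower. None of the 9 was called lower, and Drosha was not called. The same 8 genes had all nano-TiO2 libraries above all sham libraries in CPM and none had them all below, against a background of 23.3% of tested genes with all above and 22.4% with all below. The median log2 fold change of the 9 was 0.99, and that of all tested genes was -0.01. Because the genes were chosen with this contrast known, nothing is read from that count. Ago1, the gene that did not pass, is taken up with the Argonautes.

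Drosha, the RNase III enzyme of the Microprocessor, had 39.0, 53.0 and 33.5 CPM in nano-TiO2 1, 2 and 3, against 40.9, 34.1 and 34.9 CPM in sham 1, 2 and 3. The groups overlapped, and only nano-TiO2 2 stood above every sham library. Its log2 fold change was 0.19 ± 0.19 (SE). Without nano-TiO2 2 it was -0.02 ± 0.16 (SE).

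Dgcr8, the RNA-binding partner that recognises the hairpin, had 26.5, 28.6 and 21.1 CPM in the nano-TiO2 libraries, against 15.9, 17.0 and 16.7 CPM in the sham libraries. The groups did not overlap, and the log2 fold change was 0.62 ± 0.17 (SE). Dgcr8 was no longer called without nano-TiO2 1, without nano-TiO2 2, without sham 1 or without sham 2, with log2 fold changes of 0.58, 0.52, 0.65 and 0.66 in that order.

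The Dgcr8 transcript itself carries hairpins that the Microprocessor is known to cut, which lowers Dgcr8 messenger RNA. In the RefSeq annotation (GRCm38.p6), mir-3618 and mir-1306 lie in exons of Dgcr8, on the same strand. Their mature sequences are shown because the host is one of the genes described; the seed, bases 2 to 8, is in capitals.
mmu-miR-3618-5p: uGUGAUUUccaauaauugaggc
mmu-miR-3618-3p: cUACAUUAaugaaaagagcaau
mmu-miR-1306-5p: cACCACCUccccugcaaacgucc
mmu-miR-1306-3p: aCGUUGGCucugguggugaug

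No seed was shared among these arms. The libraries do not measure the mature forms, only the longer RNA over the hairpins. In the table of the whole series, which gives reads in steps (bins) of about 25 bases, the mir-3618 hairpin had 8, 5 and 5 reads in the nano-TiO2 libraries and 7, 3 and 6 reads in the sham libraries. The mir-1306 hairpin had 3, 5 and 5 reads in the nano-TiO2 libraries and 7, 1 and 4 reads in the sham libraries. Over all 6 libraries the mir-3618 hairpin averaged 6.80 reads per bin and its 10 flanking bins 5.70 reads per bin. The mir-1306 hairpin averaged 6.25 reads per bin and its flanks 8.20 reads per bin. At so few reads no difference at the hairpins was detectable.

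Dicer1, which cuts the hairpin to the duplex, had 25.4, 25.9 and 24.5 CPM in the nano-TiO2 libraries, against 11.6, 10.8 and 7.43 CPM in the sham libraries. Every nano-TiO2 library was above every sham library, and sham 3 was the lowest. The log2 fold change was 1.34 ± 0.20 (SE), and it stayed between 1.21 and 1.53 when each library was left out in turn.

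**Figure D1:**
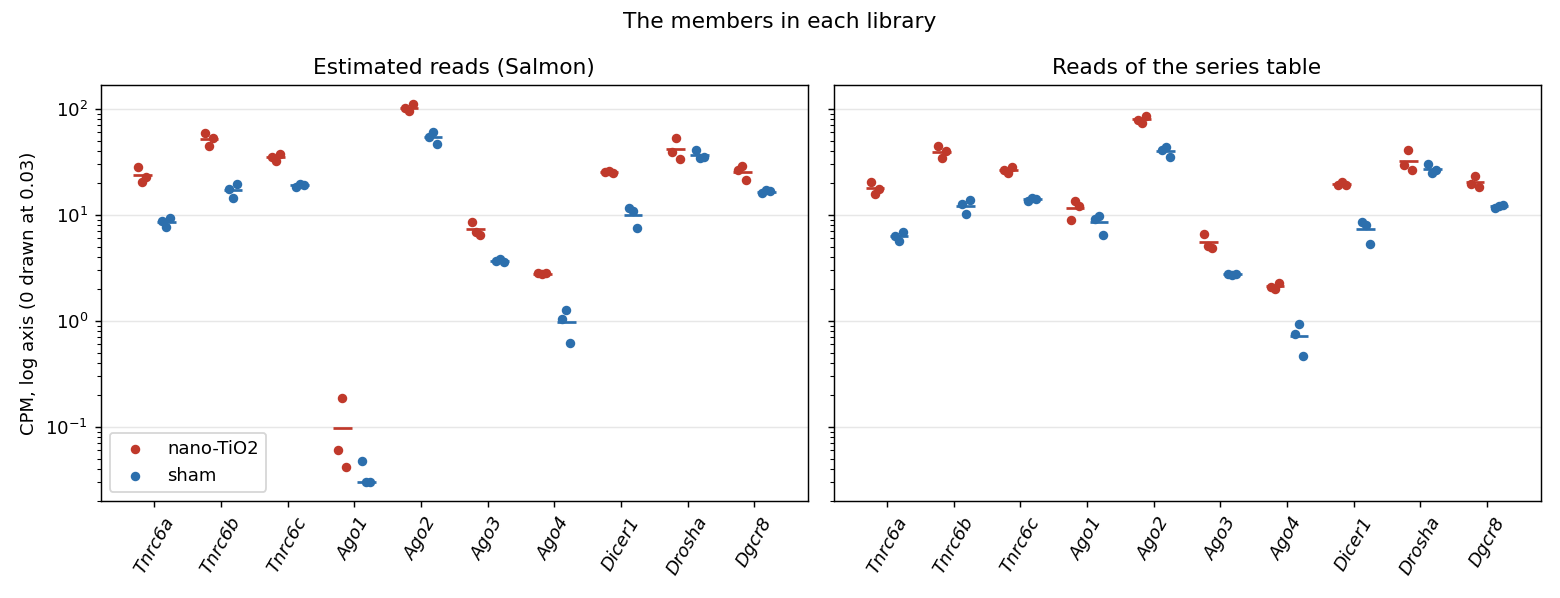
CPM of the 10 genes in each library on a log axis, from the estimated reads (left panel) and from the reads of the series table (right panel); points are libraries, bars are means, and each gene has its nano-TiO2 libraries left of its sham libraries. The groups are apart for 8 genes in both panels. Over all tested genes on the left, 23.3% had all nano-TiO2 libraries above all sham libraries and 22.4% all below. That share was not counted on the right, which shows the same libraries. Ago1 lies under 0.2 CPM on the left but between 6.47 and 13.6 CPM on the right.

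Among the Argonautes, Ago2 is the mammalian member known for slicing a fully paired target. Its catalytic site ends in a histidine that Ago1 and Ago4 lack. The stretch around that codon is shown with the codon in capitals. It comes from the longest coding transcript of each gene in GENCODE M21. Ago3 carries the histidine too, so the codon does not set Ago2 apart from Ago3.
Ago2: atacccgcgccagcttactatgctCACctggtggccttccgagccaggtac
Ago3: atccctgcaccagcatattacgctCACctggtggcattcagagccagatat
Ago1: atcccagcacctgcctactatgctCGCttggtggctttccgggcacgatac
Ago4: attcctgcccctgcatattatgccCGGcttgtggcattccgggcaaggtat

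The codon stands for histidine in Ago2 and Ago3 and for arginine in Ago1 and Ago4. Counting from 1 at the first base shown and giving the Ago2 base first, Ago1 differs within the codon by A26G, and Ago4 by A26G and C27G. Over the 51 bases Ago1 differs from Ago2 at 12 positions, Ago3 at 10 and Ago4 at 14. Ago1, Ago3 and Ago4 all lie on chromosome 4 in that annotation, and Ago2 lies on chromosome 15.

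Ago2 had 102, 94.5 and 111 CPM in the nano-TiO2 libraries, against 54.1, 60.4 and 46.6 CPM in the sham libraries. The groups were apart, and the log2 fold change was 0.93 ± 0.14 (SE). Leaving out each library in turn gave 0.87 to 1.04.

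Ago3 had 8.62, 6.87 and 6.45 CPM in the nano-TiO2 libraries, against 3.64, 3.82 and 3.61 CPM in the sham libraries. The 3 sham values lay close together, and all nano-TiO2 values were above them. The log2 fold change was 0.99 ± 0.22 (SE); without nano-TiO2 1, the highest library, it was 0.85 and Ago3 was no longer called.

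Ago4 was the least abundant of the 9 tested, with 2.79, 2.75 and 2.81 CPM in the nano-TiO2 libraries, against 1.04, 1.27 and 0.611 CPM in the sham libraries. The groups did not overlap. Its log2 fold change of 1.52 ± 0.37 (SE) had the widest error of the 9, and Ago4 was no longer called without nano-TiO2 1 (1.52) or without nano-TiO2 3 (1.51).

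Ago1 was measured differently by the 2 kinds of file. The estimated reads of its 5 annotated transcripts came to at most 3 reads in any library, 0.0607, 0.187 and 0.0413 CPM in the nano-TiO2 libraries and 0.0473, 0 and 0 CPM in the sham libraries. In the series table the same gene held 190, 274 and 375 reads in the nano-TiO2 libraries and 258, 177 and 168 reads in the sham libraries. Scaled to CPM these were 8.91, 13.6 and 12.2 in nano-TiO2 hearts and 9.16, 9.69 and 6.47 in sham hearts. The groups overlapped through nano-TiO2 1, and the log2 fold change was 0.45 ± 0.23 (SE), not called by edgeR. There, 8 of the 10 genes were called higher and 0 lower (background 15.4% higher and 11.2% lower among 18850 genes), the same genes as with the estimated reads, with log2 fold changes of 0.75 (Dgcr8) to 1.69 (Tnrc6b). Drosha and Ago1 were not called.

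The Argonautes are alike enough that short reads could be split between them. Ago1 and Ago3 share an identical run of 170 coding bases, Ago1 and Ago2 a run of 53, and Ago4 shares a run of 38 with Ago1 and with Ago3. Of all stretches of 31 bases, 2.26% of those of Ago1 also occur in another Argonaute, 0.90% of those of Ago3, 0.167% of those of Ago2 and 0.123% of those of Ago4. For the Tnrc6 genes the share found in a paralogue was 0, the longest identical coding runs being 19 to 24 bases. Counting any other gene, paralogue or not, the share ran from 0 (Tnrc6c) to 9.44% (Dgcr8), with 6.00% for Ago2 and 1.46% for Tnrc6a. How the authors assigned reads shared by paralogues in the series table is not given in the sources used here.

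Tnrc6a had 27.9, 20.2 and 22.7 CPM in the nano-TiO2 libraries, against 8.79, 7.71 and 9.31 CPM in the sham libraries. The groups did not overlap. The log2 fold change was 1.45 ± 0.18 (SE).

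Tnrc6b had 59.5, 44.4 and 52.4 CPM in the nano-TiO2 libraries, against 17.6, 14.3 and 19.4 CPM in the sham libraries. Its log2 fold change of 1.61 ± 0.18 (SE) was the highest of the 9 tested genes, and it ranged from 1.50 to 1.74 when each library was left out in turn. The lowest nano-TiO2 library was above the highest sham library.

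Tnrc6c had 34.7, 31.9 and 37.6 CPM in the nano-TiO2 libraries, against 18.4, 19.7 and 18.9 CPM in the sham libraries. The log2 fold change was 0.87 ± 0.14 (SE), with no overlap between groups. All 3 scaffolds, which bind Argonautes and recruit deadenylases, were called higher in nano-TiO2 hearts, against 15.5% of all tested genes. None of the 3 was called with the length and GC trend described below removed. Without sham 2 and nano-TiO2 3 none was called either. Nothing is read from this count, and differences in size between the 3 were not tested.

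Tnrc6b also carries a microRNA hairpin, mir-5113, in an exon and on its own strand in the RefSeq annotation (GRCm38.p6). Its mature sequence is given with the seed in capitals, which matches none of the seeds above.
mmu-miR-5113: aCAGAGGAggagagagauccugu

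The bins over this hairpin held 7, 6 and 15 reads in the nano-TiO2 libraries and 1, 0 and 1 reads in the sham libraries. Flanking bins were as deep as the hairpin, at 7.10 against 7.50 reads per bin over all 6 libraries.

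Fold changes in these libraries went with the length and GC content of transcripts, so the lengths of these 10 genes are given beside their values. The longest coding transcripts run to 17332 bases for Tnrc6b, 15595 for Ago3 and 13800 for Ago2, to 9851 for Dicer1, 8847 for Tnrc6c, 8183 for Tnrc6a, 7227 for Ago1 and 6537 for Ago4, and to 4570 for Drosha and 4320 for Dgcr8. The trend used the mean transcript length weighted by reads instead. That was 13848 bases for Ago3, 13727 for Ago2, 10972 for Tnrc6b, 9041 for Dicer1 and 8966 for Tnrc6c. It was 6539 for Tnrc6a, 6448 for Ago4, 4513 for Drosha and 3969 for Dgcr8. GC content in the 9 tested genes ran from 42.7% (Ago3) to 53.7% (Tnrc6c). The log2 fold change that the trend over length and GC gave at each gene was 0.93 for Ago2, 1.08 for Ago3, 0.54 for Dgcr8 and 0.26 for Drosha, next to measured values of 0.93, 0.99, 0.62 and 0.19. It was 0.84 for Ago4, 0.79 for Tnrc6a, 0.99 for Tnrc6b, 0.45 for Tnrc6c and 0.99 for Dicer1, next to measured values of 1.52, 1.45, 1.61, 0.87 and 1.34. With each library's trend removed, Ago2, Ago3, Dgcr8 and Drosha had log2 fold changes of 0.00, -0.10, 0.07 and -0.08. The others kept 0.69 ± 0.37 (Ago4), 0.66 ± 0.16 (Tnrc6a), 0.61 ± 0.15 (Tnrc6b), 0.42 ± 0.16 (Tnrc6c) and 0.36 ± 0.18 (Dicer1), all ± SE. After this removal edgeR called 0 of the 9 genes, against a background of 0.395% higher and 1.18% lower over all genes. At an unadjusted p under 0.05, 3 of the 9 were higher, against 1104 higher and 1726 lower of all 13930 genes. No other tool was run with the trend removed. A difference between the libraries in how long transcripts were captured and a change in the abundance of long transcripts cannot be told apart in these groups.

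**Figure D2:**
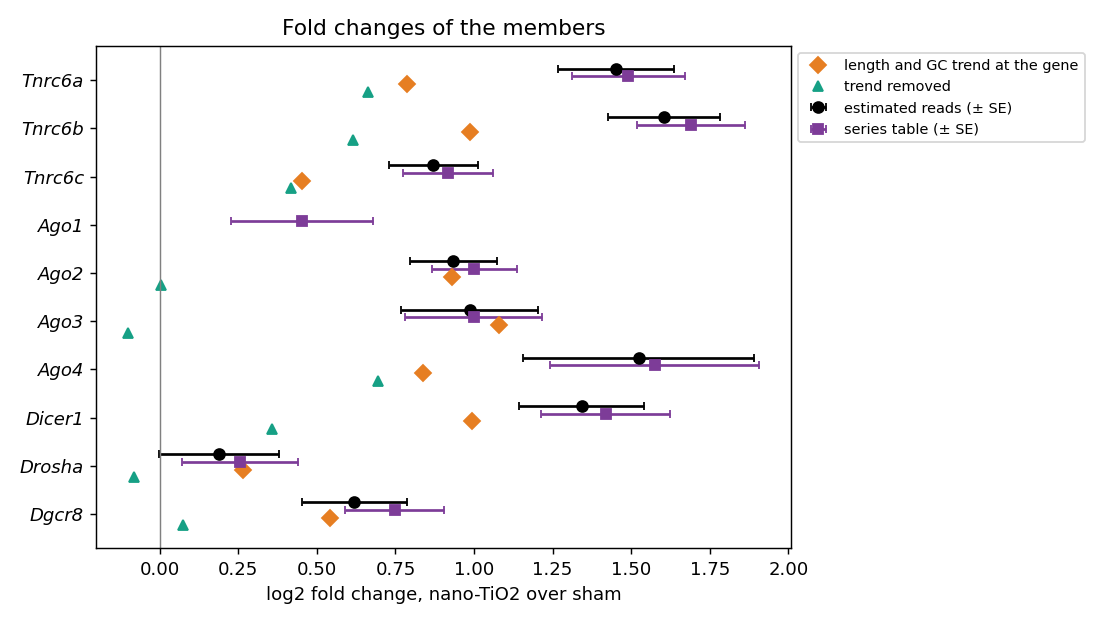
Log2 fold changes of the 10 genes, nano-TiO2 over sham, from the estimated reads (circles, ± SE), the series table (squares, ± SE), the length and GC trend at each gene (diamonds) and the estimated reads with that trend removed (triangles). For Ago2, Ago3, Drosha and Dgcr8 the diamond lies on or near the circle and the triangle near 0; for Tnrc6a, Tnrc6b and Ago4 the triangle stays above 0.6, and Ago1 has only the series table value of 0.45.

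The scaling set part of every value. Of all calls, 54.7% were higher under TMM, 64.9% under upper-quartile factors, 98.8% when only library totals were used and 25.1% after removal of the trend. Library totals moved the median of all genes to 0.41. On log2(TPM + 1) that median was 0.47 and higher genes were 99.4% of the calls. The same 8 of the 10 genes were called under TMM, upper-quartile factors and library totals, against 2154, 2424 and 4270 of all 13930 genes called higher. On log2(TPM + 1), where Ago1 and Ago4 fell below a mean of 1 TPM and were not tested, the other 8 were all called higher by limma, Drosha among them. On that scale limma called 4208 of all 11935 tested genes higher and 27 lower. When sham 2, with its hepatocyte markers, and nano-TiO2 3, with its lung markers, were both left out, edgeR called 0 genes of 14021. At an unadjusted p under 0.05, 2239 genes were higher and 1111 lower, and 8 of the 9 were among the higher. Over the remaining libraries these 8 had log2 fold changes from 0.80 (Dgcr8) to 1.77 (Ago4), with Tnrc6b at 1.53, and Drosha had 0.32.

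Levels between genes were compared per length, as TPM (Salmon's length-scaled abundance) and as CPM per bin of the series table, scaled to library totals. In TPM, Tnrc6b, Drosha, Ago2, Tnrc6a and Dgcr8 led in nano-TiO2 hearts with means of 12.9, 12.3, 10.7, 10.4 and 10.3, and each neighbour in that order overlapped the next. In sham hearts Drosha led alone at 6.62 ± 1.53 TPM (SD, n = 3), above Dgcr8 at 3.75 ± 0.425, Ago2 at 3.48 ± 0.715, Tnrc6a at 2.71 ± 1.08 and Tnrc6b at 2.63 ± 0.530, and among these last 4 each overlapped the next. Tnrc6c followed at 5.13 ± 0.322 TPM in nano-TiO2 hearts and 1.82 ± 0.20 TPM in sham hearts, and Dicer1 at 4.20 ± 0.427 TPM in nano-TiO2 hearts and 1.00 ± 0.306 TPM in sham hearts. Ago3 came to 2.51 ± 0.957 TPM in nano-TiO2 hearts and 0.855 ± 0.176 TPM in sham hearts, and Ago4 to 0.637 ± 0.0904 TPM in nano-TiO2 hearts and 0.115 ± 0.0337 TPM in sham hearts. In TPM Drosha did not overlap between the groups, with 10.1, 17.6 and 9.01 in the nano-TiO2 libraries and 8.22, 5.18 and 6.46 in the sham libraries, while in CPM it did; the TPM scale carries the shift of the median of all genes given above.

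The series table gave another order. Ago2 had 0.165 ± 0.0108 CPM per bin in nano-TiO2 hearts and 0.0604 ± 0.00702 in sham hearts (SD, n = 3 each). Drosha had 0.161 ± 0.0520 in nano-TiO2 hearts, where it overlapped Ago2, and 0.0984 ± 0.0213 in sham hearts, where it stood above Ago2. Tnrc6c was the most abundant scaffold on this scale, at 0.0601 ± 0.00306 in nano-TiO2 hearts and 0.0234 ± 0.00212 in sham hearts, whereas it was the least abundant in TPM. Ago1 had 0.0421 ± 0.0118 in nano-TiO2 hearts and 0.0222 ± 0.00455 in sham hearts, above Ago3 at 0.00966 ± 0.00138 in nano-TiO2 hearts and 0.00356 ± 0.000491 in sham hearts. Ago3 and Ago4 were the lowest pair in both groups. This scale uses library totals without TMM factors, so it serves to compare genes within a group. On it Ago1 did not overlap between the groups (0.0302 to 0.0537 in nano-TiO2 hearts, 0.0177 to 0.0268 in sham hearts). In CPM with TMM factors Ago1 did overlap.

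Within the families, Ago2 took most of the Argonaute TPM: 81.1%, 69.6% and 78.2% in the nano-TiO2 libraries and 74.5%, 81.1% and 78.5% in the sham libraries. The means were 76.3% ± 5.99 in nano-TiO2 hearts and 78.1% ± 3.32 in sham hearts (SD, n = 3 each), and the groups overlapped. That share leaves Ago1 almost out. By mean reads per bin of the series table, Ago2 held 73.3% ± 2.95 in nano-TiO2 hearts and 68.5% ± 1.80 in sham hearts, and Ago1 held 14.9%, 22.2% and 18.2% in the nano-TiO2 libraries and 26.4%, 25.9% and 22.8% in the sham libraries. Ago4 held 3.94% ± 0.132 in nano-TiO2 hearts and 2.44% ± 0.507 in sham hearts on the same scale. Ago3 held 17.6% of the Argonaute TPM in nano-TiO2 hearts and 19.3% in sham hearts. By TPM of protein-coding transcripts only, Ago3 held 6.97% in nano-TiO2 hearts and 5.65% in sham hearts. Its 3 short noncoding transcripts took 5.91% to 13.5% of its reads in nano-TiO2 libraries and 8.18% to 14.6% in sham libraries.

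Tnrc6b took 40.1%, 51.9% and 44.9% of the Tnrc6 TPM in the nano-TiO2 libraries and 33.2%, 37.6% and 40.3% in the sham libraries. The highest sham library was above the lowest nano-TiO2 library. By reads per bin the Tnrc6b share was 32.5% ± 1.23 in nano-TiO2 hearts and 24.4% ± 2.47 in sham hearts, without overlap, and Tnrc6c was the leading scaffold with 40.3% ± 2.66 in nano-TiO2 hearts and 52.0% ± 3.70 in sham hearts (SD, n = 3 each). The 2 measures differ in how transcripts of a gene enter. Transcripts classed as retained introns took 18.2% to 31.6% of the Tnrc6b reads in nano-TiO2 libraries and 19.2% to 28.3% in sham libraries. For Tnrc6c they took 5.27% to 12.5% in nano-TiO2 libraries and 1.04% to 4.42% in sham libraries, and for Tnrc6a 7.99% to 20.9% in nano-TiO2 libraries and 3.03% to 14.4% in sham libraries. TPM divides reads by the length of each transcript, so short transcripts add more TPM per read. By TPM of protein-coding transcripts only, Tnrc6b held 37.7% and Tnrc6c 30.6% in nano-TiO2 hearts. In sham hearts they held 29.9% and 40.7% on that measure. What sets the order of the scaffolds apart between the measures was not tested.

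**Figure D3:**
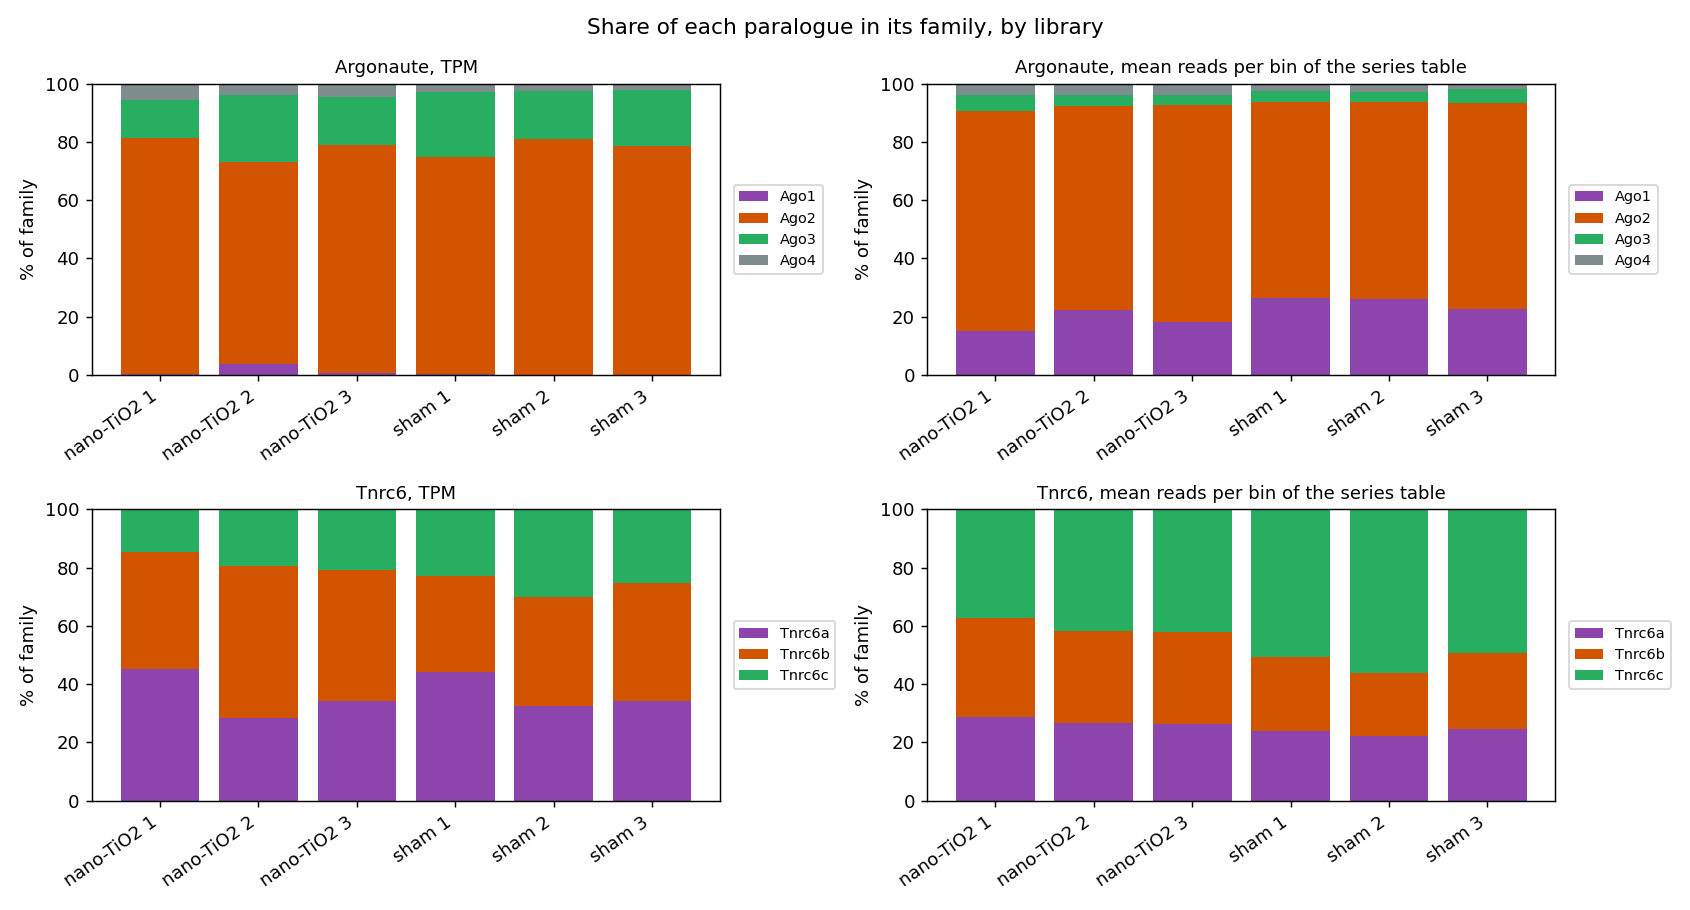
Share of each paralogue in the summed level of its family in each library, nano-TiO2 libraries left of sham libraries, by TPM (left) and by mean reads per bin of the series table (right); bars add to 100%. Ago2 is the largest Argonaute part in every library, Ago1 is visible mainly on the right, and Tnrc6c is the largest scaffold part on the right in every library.

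The share of reads in a region is given beside the bases of the longest coding transcript that lie there. Bins were placed on the joined exons of GENCODE M21. Whether the authors' bins of these genes follow the same exons was not checked. For Ago2 and Drosha the share of reads was close to that of the bases. In the series table, Ago2 had 82.4% ± 2.64 of its reads after the coding region in nano-TiO2 hearts and 79.8% ± 0.982 in sham hearts (SD, n = 3 each), where 11067 of the 13800 bases of its longest coding transcript lie. Ago1 had 93.2% ± 0.755 of its reads after the coding region in nano-TiO2 hearts and 95.6% ± 0.744 in sham hearts, where only 4494 of its 7227 bases lie. Its coding region thus rests on 9, 19 and 19 reads in the nano-TiO2 libraries and 10, 7 and 5 reads in the sham libraries. Drosha had 91.8% ± 0.984 of its reads inside the coding region in nano-TiO2 hearts and 91.9% ± 0.698 in sham hearts, where 4119 of its 4570 bases lie. Dicer1 had 45.1% ± 2.52 of its reads in the coding region in nano-TiO2 hearts and 42.6% ± 5.84 in sham hearts, where 5718 of its 9851 bases lie.

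Long stretches were almost bare in both groups. With each transcript cut into 4 equal pieces, piece 3 of Tnrc6b held 10, 17 and 13 reads in the nano-TiO2 libraries and 11, 1 and 5 in the sham libraries, while piece 1 held 330, 262 and 320 reads in the nano-TiO2 libraries and 144, 61 and 176 in the sham libraries. Piece 2 of Ago2 held 76, 62 and 42 reads in the nano-TiO2 libraries and 42, 14 and 31 in the sham libraries, against 658, 621 and 1211 reads in the nano-TiO2 libraries and 432, 346 and 338 in the sham libraries over piece 4. Tnrc6c and Ago1 held most of their reads in piece 4 in every library.

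As a description with no test, the group difference was also taken apart along the transcripts. The log2 ratio of mean CPM, nano-TiO2 over sham, was 2.11 after the coding region of Tnrc6b and 1.53 within it, 1.77 after and 1.30 within for Tnrc6a, and 0.98 after and 0.74 within for Tnrc6c. It was higher after the coding region than within it for 7 of the 9 genes where both pieces had reads in both groups, and lower for Ago1 (0.41 after, 1.09 within) and Dicer1 (1.27 after, 1.51 within). The share of reads after the coding region was above all sham libraries in all nano-TiO2 libraries for 1 gene, Ago4 (67.5% to 75.7% in nano-TiO2 hearts and 52.9% to 66.7% in sham hearts), and below them for 1, Ago1. For the other genes the groups overlapped. The Ago4 shares in sham hearts rest on only 14, 9 and 8 reads after the coding region. None of these counts of genes was also taken over all genes, so nothing is read from them.

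**Figure D4:**
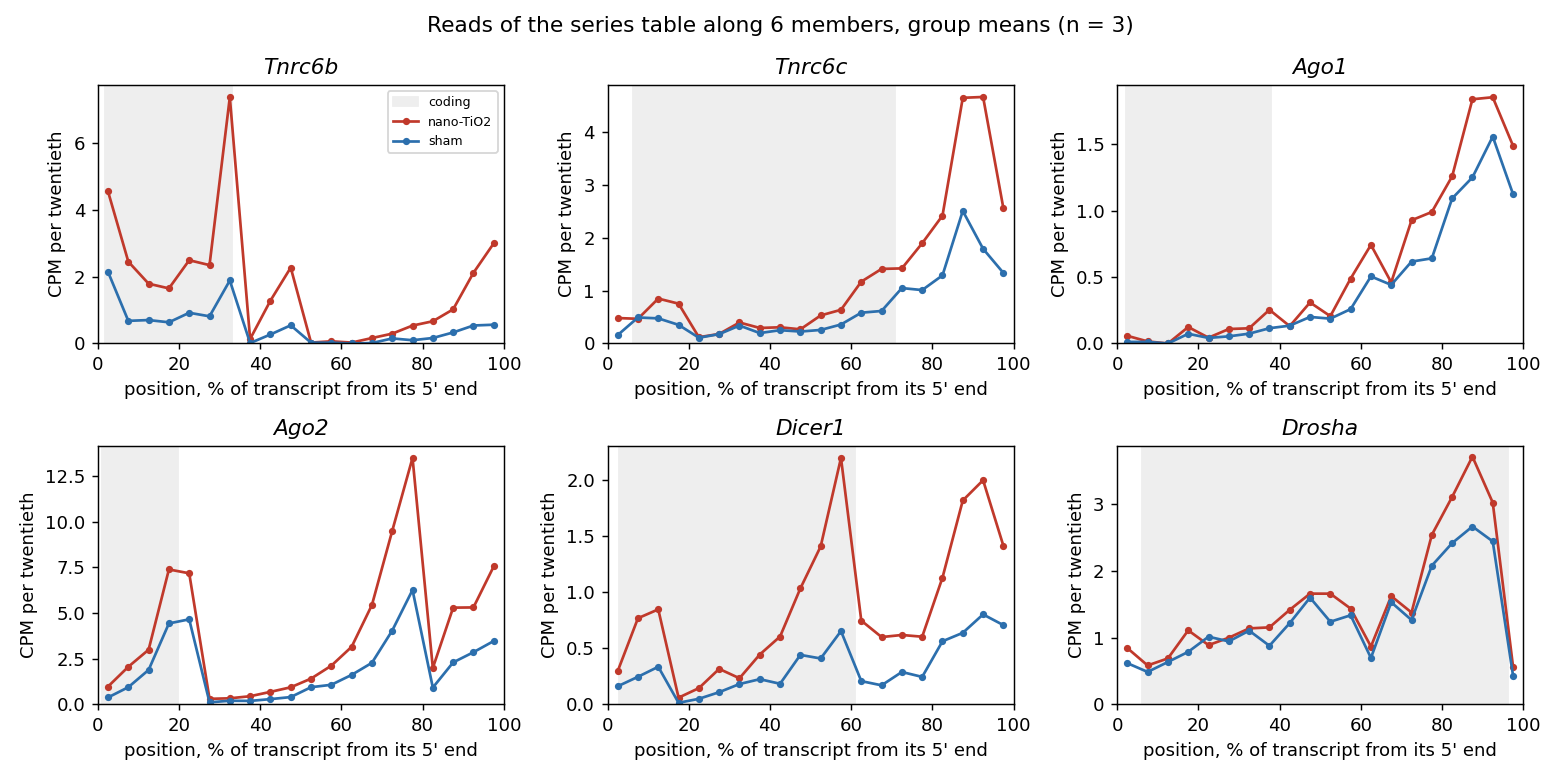
Mean CPM (n = 3 per group) in each twentieth of the longest coding transcript, from its 5' end, for 6 of the genes; red is nano-TiO2, blue is sham, and the grey field is the coding region. Reads of Ago1 and Tnrc6c pile up toward the 3' end, Ago2 and Tnrc6b have a nearly empty stretch after the coding region, and Drosha carries its reads within the coding region with the 2 groups close together.

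Around these 10 genes, 96 other genes of the pathway were listed in 8 groups by role, and 83 were tested. Of these, edgeR called 18 higher and 2 lower in nano-TiO2 hearts (background 15.5% higher and 12.8% lower), and 63 did not pass; the median log2 fold change was 0.15. The 18 higher calls became 8 without nano-TiO2 1, 9 without nano-TiO2 3, 11 without sham 2 and 0 after removal of the trend over length and GC. When only library totals were used they were 40 and on log2(TPM + 1) 45. With the trend removed, the median log2 fold change was 0.01 for deadenylases and -0.08 for decapping and repression. It was -0.01 for editing, tailing and turnover, -0.14 for nuclear cofactors and -0.48 for export and dicing cofactors. For Argonaute loading and partners it was -0.08 and for host transcripts 0.06.

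The deadenylases, which shorten the tails of targets that Tnrc6 proteins hold, gave 4 of 16 higher and 0 lower. Cnot6, a catalytic subunit of the CCR4-NOT complex, rose to 46.3 ± 4.71 CPM in nano-TiO2 hearts, against 17.6 ± 2.31 CPM in sham hearts (SD, n = 3 each; edgeR log2 fold change 1.40 ± 0.16 SE, adjusted p = 0.0063). Pan3, a subunit of the PAN2-PAN3 deadenylase, rose by 1.34 ± 0.19 on the log2 scale (SE; edgeR adjusted p = 0.0063), with 19.7 CPM in nano-TiO2 hearts and 7.78 CPM in sham hearts. Cnot6l, a second catalytic subunit, rose by 1.07 (edgeR adjusted p = 0.0201), and Cnot1, the scaffold of CCR4-NOT, by 0.97 (edgeR adjusted p = 0.00854).

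The decapping and repression genes gave 4 of 14 higher and 0 lower. Xrn1, the exonuclease that degrades decapped RNA, rose by 1.27 on the log2 scale, Ddx6, a helicase of translational repression, by 1.12, Lsm14a, a P-body protein, by 0.97 and Gigyf2, a repressor of cap-dependent translation, by 0.60 (edgeR adjusted p = 0.0104, 0.00736, 0.0131 and 0.0366 in that order). Genes for editing, tailing and turnover gave 4 of 13 higher and 0 lower. Tut7 and Tut4, the uridylyltransferases that tail microRNA precursors, rose by 1.22 and 0.86, Adarb1, an adenosine deaminase acting on RNA, by 0.60, and Xrn2, a nuclear exonuclease, by 0.54 (edgeR adjusted p = 0.00904, 0.0245, 0.0271 and 0.0301).

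The nuclear cofactors gave 2 of 12 higher and 0 lower. These were Ddx5, a helicase of the Microprocessor, with a log2 fold change of 0.68, and Ncbp2, a cap-binding protein, with 0.49 (edgeR adjusted p = 0.00947 and 0.035). The export and dicing cofactors gave 0 of 4 higher and 1 lower. Tarbp2, the double-stranded RNA-binding partner of Dicer1, fell to 58.2 ± 5.27 CPM in nano-TiO2 hearts, against 89.3 ± 1.00 CPM in sham hearts (SD, n = 3 each; edgeR log2 fold change -0.62 ± 0.12 SE, adjusted p = 0.0107). After removal of the trend its log2 fold change was -0.08. Among genes for Argonaute loading and partners, 2 of 15 were higher and 1 lower. Ipo8, an importin that binds Argonautes, had a log2 fold change of 0.86, and Fmr1, an RNA-binding translational regulator, 0.77 (edgeR adjusted p = 0.0119 and 0.0445). Fkbp4, a cochaperone of HSP90, had -0.62 (edgeR adjusted p = 0.0159).

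The PIWI genes, which act with piRNAs in the germ line, were close to absent. Piwil1 had 0 reads in all 6 libraries, Piwil4 had 1 read in 1 nano-TiO2 library, and Piwil2 had 4, 0 and 4 reads in the nano-TiO2 libraries and 2, 0 and 5 reads in the sham libraries. The 4 germ cell markers summed to 0.547 to 1.19 CPM in nano-TiO2 hearts and 0.254 to 1.05 CPM in sham hearts. Of transcripts that host microRNAs, 2 of 9 tested were higher and 0 lower. Pank3 and Pank1, which host mir-103 and mir-107 family members and encode pantothenate kinases, had log2 fold changes of 1.12 and 0.96 (edgeR adjusted p = 0.0195 and 0.0458), and the Pank1 groups overlapped. In the series table, which also holds the long noncoding hosts, 4 of 14 tested hosts were higher and 0 lower (background 15.4% higher and 11.2% lower). The 4 were the protein-coding Pank1, Pank2, Pank3 and Ppargc1b, and no long noncoding host was called. Dleu2, the host of mir-15a and mir-16-1, held 394, 322 and 401 reads in the nano-TiO2 libraries and 209, 208 and 324 reads in the sham libraries, and had a log2 fold change of 0.60 ± 0.23 (SE) with an edgeR adjusted p = 0.0821. Myh6 and Myh7, which host mir-208a and mir-208b in heart muscle, had log2 fold changes of -0.11 and -0.34 and were not called.

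**Figure D5:**
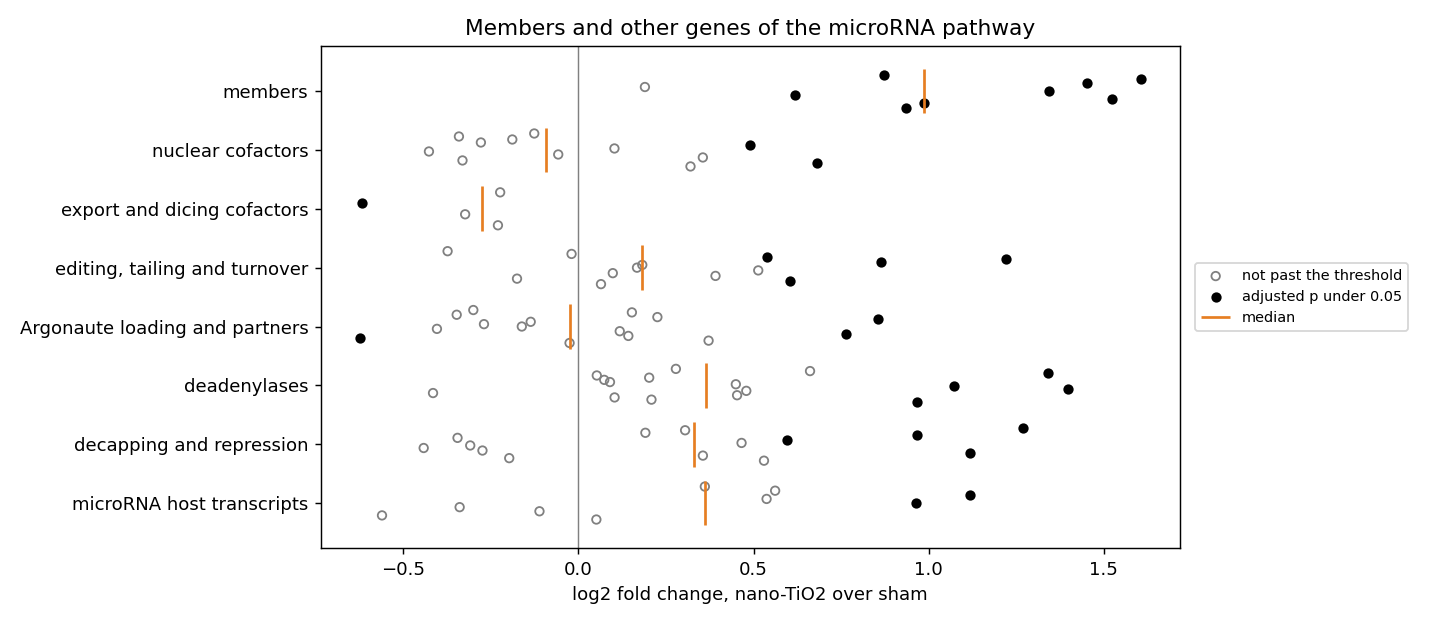
Log2 fold changes, nano-TiO2 over sham, of the tested genes of the core group (members) and of the other pathway lists with tested genes; filled points have an adjusted p under 0.05 by edgeR, open points do not, and the orange bar is the median of the row. The core group lies at 0.99, the deadenylases at 0.36 and the nuclear cofactors at -0.09. With the length and GC trend removed these medians were 0.36, 0.01 and -0.14 (not drawn).

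The genes whose profile over the 6 libraries was most like the mean profile of the 9 tested genes, among 10376 genes averaging 5 CPM or more, were Tia1 (Pearson r = 0.998), Heatr5a (0.996), Akap13 (0.995), Pan3 (0.995) and Clcn5 (0.994). Tia1, an RNA-binding protein of stress granules, had 54.9, 53.1 and 47.9 CPM in the nano-TiO2 libraries and 25.4, 26.6 and 23.0 CPM in the sham libraries. These r values describe 6 libraries in 2 groups that share depth and scaling, and carry no test.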

How the data were processed

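Salmon's estimated counts of reads per transcript and the TPM beside them were deposited unscaled, per the file headers. The series table is a signal per bin of about 25 bases, divided by the authors by 1 factor per library; 100% of its values were whole reads within a tolerance of 0.001, and this signal was turned back to reads. GRCm39 is the build, and DESeq2 1.34.0, Salmon 1.5.2 and HISAT2 2.2.1 are the tools, named with no role in the submitters' processing notes. Which tool counted the bins, and with which strand setting, is not given in the sources used here. Symbols, lengths and coding regions came from GENCODE M21 (GRCm38), so no coordinates are given; 115685 of 116747 transcripts matched.

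Estimated counts were summed per gene, rounded and tested with edgeR 4.0.16 (quasi-likelihood, robust, TMM, filterByExpr, group as the only term, 3 against 3 libraries, threshold 0.05), which was tested on simulated data. The biological coefficient of variation was 23.9%. The precision of a gene is given by its standard error. Bins were ordered along joined exons from the lower coordinate, the order that matched Salmon's transcript levels better in 91.5% of 1500 plus-strand and 88.5% of 1500 minus-strand genes. That check kept only genes whose joined exons fitted the span of their bins, and the core genes were not held to it. The length and GC trend was fitted per library with mgcv 1.9.3, on the mean length and GC content of the transcripts of a gene weighted by their reads. Alternatives also used DESeq2 1.42.0 and limma 3.58.1. Libraries of a group differed by more than sampling noise (chi-square over degrees of freedom 16.3 to 143).

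The 10 genes and all lists were chosen with earlier results of these data known. Named genes are the 10, up to 4 called genes of each other list with the smallest p (otherwise the 1 with the highest mean CPM) and the 5 most alike in profile; host transcripts, Tarbp2's trend value and PIWI reads named besides were chosen after their values were seen. Counting error alone bounds values based on few reads.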

Additional observations from a re-analysis of the deposited data

Results flagged for a closer look

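A transcript of 7065 bases that the annotation used here does not match to any gene, and that entered no comparison, had 193, 269 and 371 estimated reads in the nano-TiO2 libraries and 255, 169.9 and 171 in the sham libraries. Its lowest library, at 169.9 reads, lies far above the level of 3 reads that a count of 0 allows. It was picked out because, of all unmatched transcripts, its reads lay closest to those of Ago1 in the series table. No annotation used here pairs it with a gene, so it was given no name and its reads were added to none.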

How the results depend on the processing

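Higher and lower calls numbered 2154 and 1781 of 13930 genes, and RLE, DESeq2 and upper-quartile scaling and no low-count filter kept each within 1.5 times. They were 4270 and 50 under library totals alone, 4208 and 27 on log2(TPM + 1), 4162 and 32 on log2(TPM + 0.1), 55 and 164 after removal of the length and GC trend, and 0 and 0 without sham 2 and nano-TiO2 3 (2239 and 1111 at an unadjusted p under 0.05). Leaving out each library gave 864 (without nano-TiO2 1) to 2190 higher and 425 (without sham 2) to 2082 lower; without nano-TiO2 3 there were 1028 and 541, without sham 2 1028 higher, without nano-TiO2 1 439 lower, without sham 1 552 lower and without sham 3 1132 lower. Of the core genes 8 were called higher, against 0 with the trend removed, 0 without both libraries, and 5 (without nano-TiO2 1) to 8 with each library left out; 0 were called lower in every setting run. Other pathway genes called higher were 18, against 40, 45, 45, 0 and 0 under the 5 settings in the order above, and 8 to 23 with each library left out; those called lower were 2, against 0, 0, 0, 1 and 0, 4 by DESeq2, and 0 (without sham 1 or 2) to 7 (without nano-TiO2 2). Ago3 turned to -0.10 with the trend removed; the other core log2 fold changes that were called kept their sign in every setting run. The cause of these changes was not tested. With the replicate number as a block, 1262 genes, 5 core genes and 11 other pathway genes were higher and 795 genes lower. Same-numbered libraries had correlations of -0.39, 0.02 and -0.08, and the highest with a differently numbered library were 0.48, 0.43 and 0.13. Because 1 value is set there against the highest of several, these correlations cannot decide whether same-numbered libraries are paired. The labels do not say. The Ago2 share of Argonaute levels in nano-TiO2 and sham hearts was 89.1% and 90.9% by reads over the longest coding transcript, 87.9% and 90.9% by TPM of protein-coding transcripts, and 68.5% in sham hearts by reads per bin; with each library left out it was 73.9% to 79.6% in nano-TiO2 and 76.5% to 79.8% in sham hearts. The Tnrc6b share of Tnrc6 levels was 30.5% and 23.5%, 37.7% and 29.9%, and 32.5% and 24.4% under those 3 measures in nano-TiO2 and sham hearts, and 42.5% to 48.4% and 35.4% to 39.0% with each library left out. Depth limits Ago4 (0.611 to 2.81 CPM), the coding region of Ago1 and the hairpins.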
